A study of Mus musculus with 28 samples.

Results

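Pituitary RNA of 6 male mice was compared to ask which transcripts differ when restraint stress follows a period of sleep deprivation. All 6 were C57BL/6J males, 8 weeks old on arrival. They had undergone 12 h of paradoxical sleep deprivation (PSD) by the modified multiple platform method. In this method a mouse on a small platform over water is woken by the loss of muscle tone that comes with paradoxical sleep. Mice of every group of the study, controls included, had been adapted to the procedure on earlier days. Tissue was taken 18 h after the end of PSD. The 3 PSD + restraint mice were held in a restrainer for 20 min and killed 10 min later, and the 3 PSD mice were not restrained. These 6 mice are 6 of the 28 of the series and were selected by their labelled treatment and sex. The other males were 4 home cage controls and 2 restrained mice without PSD, which entered the same statistical model, and 8 PSD females, 4 of them restrained, gave the same contrast in the other sex. Each sample is the whole pituitary of 1 mouse, so that a change in RNA per cell cannot be told apart from a change in the number of cells of a type. Mice shared a tank with cage mates during PSD, and the labels do not say which mice did.

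Restraint is a brief psychological stressor. The hypothalamus answers it with corticotropin-releasing factor and vasopressin, which act on corticotropes of the anterior lobe through cAMP and calcium signals and release adrenocorticotropin, a product of the Pomc gene. The same signals switch on immediate early genes, whose transcription needs no new protein synthesis and whose RNA appears within minutes and is soon degraded. Many of them encode transcription factors of the NR4A, AP-1 and EGR families, and others encode inhibitors that damp the signal that induced them. Corticosterone from the adrenal gland later feeds back on the pituitary through the glucocorticoid receptor.

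The deepest of the 6 libraries held 52948531 counts in genes (PSD mouse 2) and the shallowest 16452347 counts (PSD + restraint mouse 3). Gh, Prl and Pomc, the hormone genes of somatotropes, lactotropes and corticotropes, together took 27.1% to 30.8% of the counts in every mouse. Levels are given as CPM, a count relative to the total count of its library on the usual scale of edgeR and corrected for library composition, and do not correct for gene length. Differences are log2 fold changes with their standard error (SE), PSD + restraint minus PSD, from edgeR's quasi-likelihood test. To be called, a gene had to have a p of 0.05 or less after Benjamini-Hochberg adjustment over all genes tested, and its log2 fold change had to reach 0.322 in either direction.

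Restraint after PSD was followed mainly by higher transcript levels. Of 18271 genes tested, 47 were called higher (0.257% of the genes tested) and 5 lower (0.0274%), and the median log2 fold change over all genes was -0.00243. The genes with the smallest p were Fam212b, Errfi1, Ier3, Odc1, Foxj1 and B3galt2, all higher. The 3 restrained mice lay above the 3 unrestrained mice in all 47 and below them in all 5. Because these genes were selected by p in the same mice, that separation is not further support. Over all genes tested the restrained mice lay above in 1375 (7.53%) and below in 1474 (8.07%). An unadjusted p under 0.05 was reached by 1883 genes, and DESeq2 with shrunken fold changes called 127, among them 46 of the 52. The number called depended on single libraries. It was 3 without PSD mouse 1 or PSD mouse 2, 42 without PSD mouse 3, 14, 5 and 79 without PSD + restraint mouse 1, 2 and 3, and 92 without home cage control male 1, whose gland had little intermediate lobe transcript (Oacyl at 147 CPM against 538 to 688 CPM in the other 3 controls). In all of these fits the 52 genes kept their direction.

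**Figure D1:**
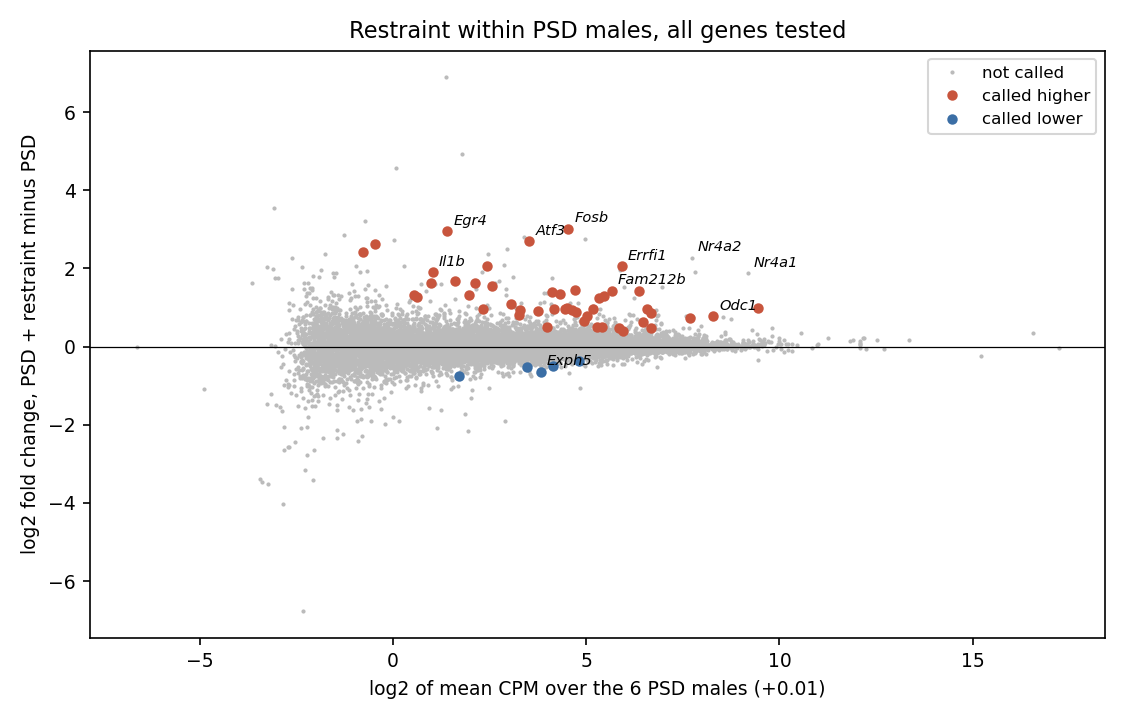
Each point is 1 of the 18271 genes tested, with the log2 of its mean CPM over the 6 PSD males on the horizontal axis and its log2 fold change (PSD + restraint minus PSD) on the vertical axis. The 47 genes called higher (red) lie along most of the horizontal axis, the 5 called lower (blue) lie between -0.37 and -0.76, and Nr4a1 and Nr4a2 are as far from 0 as many called genes without being called.

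Fam212b had the smallest p of all genes. Its present name is Inka2, and its product inhibits the kinase PAK4. The PSD mice had 27.0, 26.1 and 28.9 CPM of Fam212b and the PSD + restraint mice 77.5, 80.3 and 63.0 CPM, so that the groups stood far apart with little spread within them. The log2 fold change of Fam212b was 1.43 (SE 0.0942, edgeR adjusted p = 2.55e-05). Errfi1, which encodes the EGF receptor inhibitor MIG6, had 23.2, 19.9 and 26.9 CPM in PSD mice and 71.8, 129 and 91.9 CPM after restraint. Its log2 fold change was 2.06 (SE 0.216, edgeR adjusted p = 0.00311), a 4.17-fold ratio of means. Fam212b and Errfi1 were called under each of 15 alternative fits, Odc1 under 14 and Ier3 under 13 of them. The other called genes ranged from 12 (Gadd45b) down to 6 (Calca, Gnat1 and Mettl17).

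Ier3, an early gene linked to cell survival, had 2.67, 2.93 and 3.45 CPM in PSD mice. After restraint it had 6.86, 11.2 and 8.26 CPM, so that the groups did not overlap, and its log2 fold change was 1.54 (SE 0.179, edgeR adjusted p = 0.00682). Odc1, whose enzyme performs the rate-limiting step of polyamine synthesis, was counted at 249.8, 222 and 221 CPM in PSD mice and at 439.6, 388 and 359.5 CPM in PSD + restraint mice. The log2 fold change of Odc1 was 0.77 (SE 0.0971, edgeR adjusted p = 0.0116). B3galt2, a galactosyltransferase gene, had 7.51, 9.86 and 10.9 CPM in the PSD group and 26.2, 30.9 and 17.9 CPM in the PSD + restraint group. Its log2 fold change was 1.41 (SE 0.192, edgeR adjusted p = 0.0141). Slc25a25, a mitochondrial carrier gene that shares a list of early responders with Fam212b and B3galt2, was not called (log2 fold change 0.82, edgeR adjusted p = 0.152), although its 3 restrained mice also lay above the others.

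**Figure D2:**
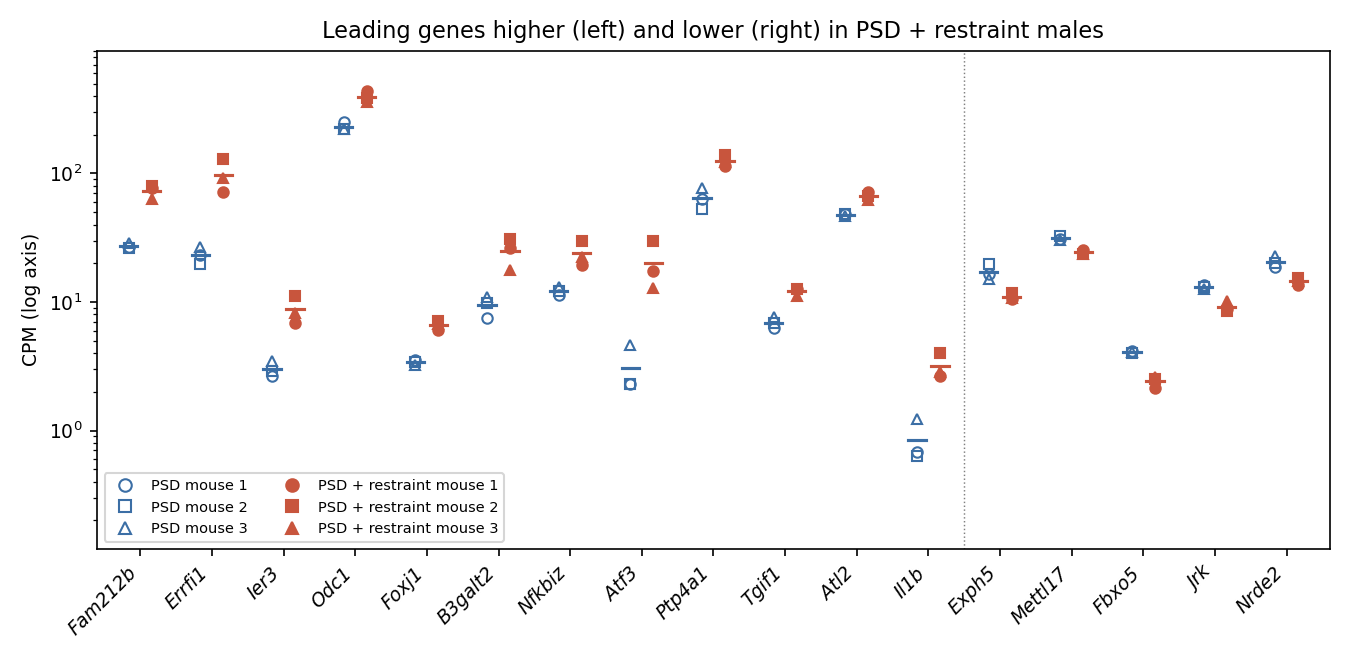
Levels in CPM on a logarithmic axis for the 12 called genes with the smallest p that were higher (left of the dotted line) and the 5 that were lower (right) in PSD + restraint males. Open blue symbols are the 3 PSD mice, filled red symbols the 3 PSD + restraint mice, the shape marks the mouse number within its group and bars are group means; in none of the 17 genes do the groups overlap.

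The promoters shown are those of the 4 called early response genes with the smallest p that have a RefSeq promoter. Each sequence is the RefSeq promoter on build GRCm38.p6, 250 bases before the transcription start to 50 after it, read 5′ to 3′ on the plus strand. Capitals mark TGACG, the half-site of the cAMP response element. The gene of Fam212b lies at chr3:105704599-105720842 (GENCODE M21, GRCm38), that of Errfi1 at chr4:150853919-150868892, that of Ier3 at chr17:35821684-35822923 and that of B3galt2 at chr1:143640664-143654614, all on the plus strand. The table holds 2 promoters each for Fam212b and Errfi1, of which the first listed is shown, and for Errfi1 it lies upstream of the GENCODE gene. The windows are chr3:105704349-105704648 for Fam212b, chr4:150853546-150853845 for Errfi1, chr17:35821463-35821762 for Ier3 and chr1:143640447-143640746 for B3galt2.
Fam212b: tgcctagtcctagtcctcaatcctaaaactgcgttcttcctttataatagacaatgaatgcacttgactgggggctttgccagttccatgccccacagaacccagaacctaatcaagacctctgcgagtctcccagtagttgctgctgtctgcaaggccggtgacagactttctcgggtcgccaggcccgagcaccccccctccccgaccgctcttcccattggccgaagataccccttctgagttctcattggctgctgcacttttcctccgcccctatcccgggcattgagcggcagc
Errfi1: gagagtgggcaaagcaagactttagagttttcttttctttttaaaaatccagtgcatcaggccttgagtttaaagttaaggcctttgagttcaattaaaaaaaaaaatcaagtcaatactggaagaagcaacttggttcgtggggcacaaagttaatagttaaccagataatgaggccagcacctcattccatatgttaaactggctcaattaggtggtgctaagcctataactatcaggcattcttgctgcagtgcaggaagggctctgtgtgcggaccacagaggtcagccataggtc
Ier3: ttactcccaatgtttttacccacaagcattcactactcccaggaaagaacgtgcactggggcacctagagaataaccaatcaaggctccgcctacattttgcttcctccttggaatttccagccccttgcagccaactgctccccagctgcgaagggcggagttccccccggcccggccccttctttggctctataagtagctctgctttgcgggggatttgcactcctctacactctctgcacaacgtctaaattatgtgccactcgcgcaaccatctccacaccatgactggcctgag
B3galt2: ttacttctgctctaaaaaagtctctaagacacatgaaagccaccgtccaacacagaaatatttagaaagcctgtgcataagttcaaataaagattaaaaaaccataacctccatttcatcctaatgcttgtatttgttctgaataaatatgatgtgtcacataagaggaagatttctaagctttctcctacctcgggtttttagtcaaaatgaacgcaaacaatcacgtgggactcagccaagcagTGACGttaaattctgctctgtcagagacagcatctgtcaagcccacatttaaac

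Both strands of these 300 bases were searched for TGACG, for the full element TGACGTCA (which contains TGACG), for the AP-1 site TGANTCA, for the NR4A site AAAGGTCA and for the CArG box bound by SRF. Of the 47 genes called higher, 29 had a promoter in the table. TGACG was in 11 of these 29 promoters (37.9%) and in 21.0% of all 27025 promoters of this length. The full element TGACGTCA was in 0 of the 29 and 1.88% of all, TGANTCA in 1 of the 29 (3.45%) and 7.93% of all, AAAGGTCA in 0 and 1.46%, and the CArG box in 0 and 1.57%. These shares are descriptions of letters in a short window. For the called early response and leading genes that hold TGACG, the match nearest to the start is shown with 10 bases on either side, read on the strand that spells TGACG (capitals).
Odc1: cccgccccacTGACGcgcccggccc
B3galt2: agccaagcagTGACGttaaattctg
Atf3: aatcccaggcTGACGtaatgctatt
Ptp4a1: ggcggacttgTGACGcaggggcgcc
Fosb: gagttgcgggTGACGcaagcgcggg
Npas4: cgtcacgggaTGACGtcggaagtct
Egr4: cctggcgccgTGACGtaaatgacca
The windows on the plus strand are chr12:17544784-17544808 for Odc1, chr1:143640683-143640707 for B3galt2, chr1:191183326-191183350 for Atf3 and chr6:85513684-85513708 for Egr4, and those on the minus strand chr1:30949755-30949779 for Ptp4a1, chr7:19310091-19310115 for Fosb and chr19:4990126-4990150 for Npas4 (GRCm38.p6). The match lay 79 bases before the RefSeq start in Odc1, 4 in B3galt2, 7 in Atf3 and 14 in Ptp4a1. The distance was 60 bases in Fosb, 169 in Npas4 and 109 in Egr4. In Atf3 and Egr4 the match was on the strand opposite to the gene. By the GENCODE positions the matches of B3galt2, Atf3 and Npas4 lay inside the gene, and that of Odc1 began where the gene begins.

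The remaining leading genes came from several functional classes. Atf3, a stress-induced factor that dimerizes with AP-1 proteins, had 2.31, 2.31 and 4.63 CPM in PSD mice and 17.4, 29.8 and 12.8 CPM after restraint (log2 fold change 2.70, SE 0.373, edgeR adjusted p = 0.0141). Foxj1, the master regulator of motile cilia, was at 3.54, 3.43 and 3.21 CPM in PSD mice and in restrained mice at 6.10, 7.16 and 6.74 CPM (log2 fold change 0.97, edgeR adjusted p = 0.0141). Ptp4a1, a prenylated phosphatase gene, had 62.8, 53.3 and 76.6 CPM without and 114, 139 and 122 CPM with restraint, and its restrained mice were again all above the others. Its log2 fold change was 0.96 (edgeR adjusted p = 0.0141). Tgif1, a corepressor of TGF-beta signalling, had a mean of 6.92 ± 0.651 CPM (SD, n = 3) in PSD mice and, after restraint, of 12.1 ± 0.882 CPM (SD, n = 3). Atl2, which fuses tubules of the endoplasmic reticulum, had a narrow spread and a small difference, 47.9 ± 0.931 CPM (SD, n = 3) in PSD mice against 66.8 ± 5.19 CPM (SD, n = 3), a log2 fold change of 0.48 (edgeR adjusted p = 0.0153).

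Further called genes, which were chosen after their values were seen, encode chromatin and transcription corepressors (Bcor, log2 fold change 0.49, and Ski, 0.39), the Notch target Hey1 (0.66), the nuclear envelope protein emerin (Emd, 0.86), the imprinted gene Mest (0.98), the RNA-binding protein CPEB4 (Cpeb4, 0.63) and the poly(A) polymerase Fam46a (0.74). Mest was among the most abundant of the called transcripts, with 515, 410.0 and 476 CPM in PSD mice and 952, 1083 and 735 CPM in PSD + restraint mice. Calca, the gene of calcitonin and of the peptide CGRP, was at 0.892 ± 0.201 CPM (SD, n = 3) in PSD mice and at 2.15 ± 0.396 CPM (SD, n = 3) in PSD + restraint mice. The 3 genes with the largest fitted increases were not called, and each was high in 1 library. Bpifb1, Reg3g and Dmbt1, which encode secreted proteins of mucosal epithelia, had 19.5, 15.2 and 5.21 CPM in PSD + restraint mouse 1 and at most 0.448 CPM in each of the other 5 mice.

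The early response genes were described through 7 lists with 69 members, all of which were tested. The lists were drawn up with earlier results of these data known, so their direction is not independent evidence. Of the 69 members, 11 were called higher (15.9%) and 0 lower, against 0.257% called higher over all genes. In 30 members (43.5%) the 3 restrained mice lay above the 3 unrestrained ones, against 7.53% of all genes, and 66 had a log2 fold change above 0. The median over the lists' members was 0.54, beside -0.00243 for all genes. PSD mouse 3 had the highest level of the 3 unrestrained mice in 40 of the 69 genes (58%), against 34.5% of all genes tested. Among the 3 restrained mice, PSD + restraint mouse 2 was highest in 38 of the 69 (55.1%), against 33.5% of all genes. Without PSD mouse 3, 14 members were called, and without PSD mouse 1 or 2 only 2 and 3. Without PSD + restraint mouse 1, 2 or 3 they were 5, 3 and 11, and without home cage control male 1 they were 16.

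The NR4A orphan nuclear receptors, induced in corticotropes by corticotropin-releasing factor, had high levels in every restrained mouse and 1 high unrestrained mouse. Nr4a1 was at 177, 86.6 and 483 CPM in PSD mice and at 822, 1077 and 835 CPM in PSD + restraint mice. Nr4a2 had 52.1, 23.2 and 142 CPM against 320.1, 484 and 248 CPM. Nr4a3 had 6.66, 2.38 and 15.4 CPM against 43.5, 94.3 and 25.1 CPM. In all 3 genes the groups did not overlap, but PSD mouse 3 stood well above the other unrestrained mice. None of the 3 was called, with log2 fold changes of 1.87 for Nr4a1 (edgeR adjusted p = 0.218), 2.28 for Nr4a2 (0.124) and 2.76 for Nr4a3 (0.178). Without PSD mouse 3 the log2 fold change of Nr4a2 was 3.23, and Nr4a2 was then called (edgeR adjusted p = 0.0232), as was Nr4a1.

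**Figure D3:**
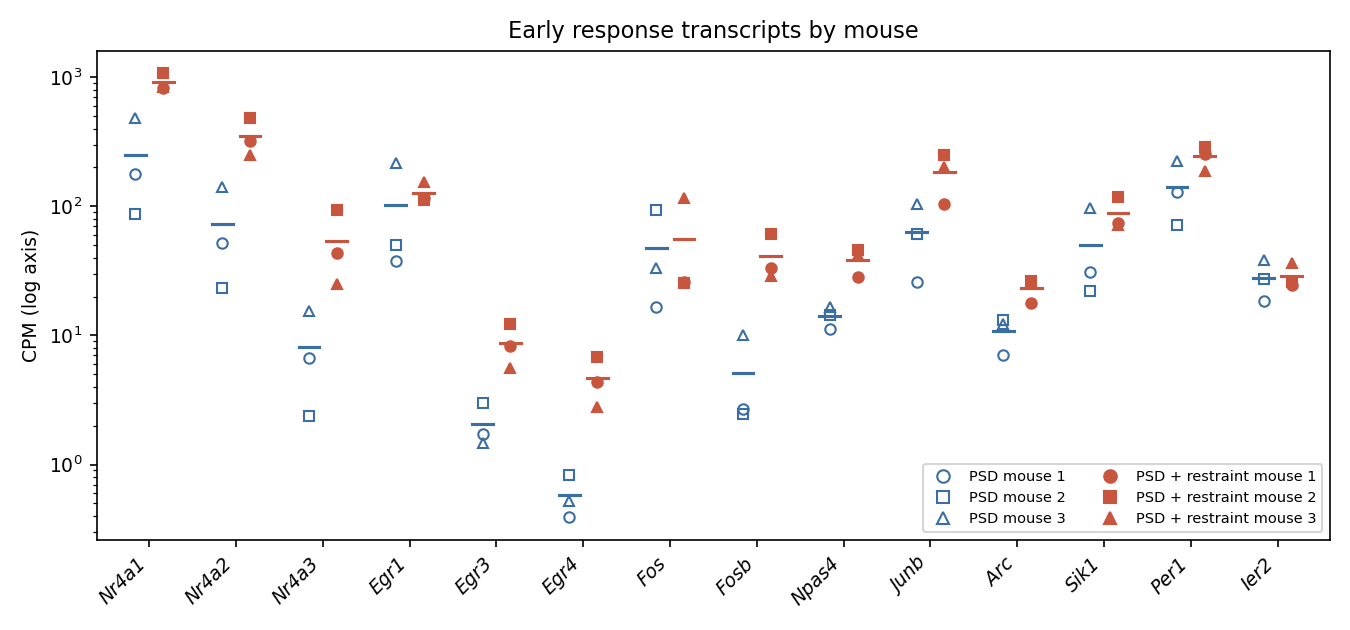
Levels in CPM on a logarithmic axis of 14 early response transcripts, with symbols as in the plot of leading genes and bars at group means. PSD mouse 3 (open triangles) is above the other 2 unrestrained mice in Nr4a1, Nr4a2, Nr4a3, Egr1, Fosb, Junb, Sik1, Per1 and Ier2, and the groups overlap in Egr1, Fos, Junb, Sik1, Per1 and Ier2.

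Of the 11 AP-1 genes, 2 were called, Atf3 and Fosb. Fosb, a Fos family member, had 2.70, 2.47 and 10.2 CPM in PSD mice and 33.2, 60.9 and 29.1 CPM after restraint. Its log2 fold change of 3.02 (SE 0.495, edgeR adjusted p = 0.0242) was the highest among the called genes. The shrunken log2 fold change of Fosb by DESeq2 was 0.24, under the threshold, and Fosb was called in 7 of 15 alternative fits. Fos itself had 16.5, 93.1 and 33.5 CPM against 26.0, 25.7 and 116 CPM, so that 1 mouse in each group was high and the groups overlapped (log2 fold change 0.19, edgeR adjusted p = 0.961). Junb had 25.8, 60.5 and 104 CPM against 104, 249.985 and 200.1 CPM (log2 fold change 1.53, edgeR adjusted p = 0.199), and Jun was at 0.29 (edgeR adjusted p = 0.512).

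Among the 7 genes of EGR factors, their NAB corepressors and SRF, Egr3 and Egr4 were called. Egr3 had 1.72, 2.998 and 1.47 CPM in PSD mice and 8.29, 12.3 and 5.59 CPM in PSD + restraint mice (log2 fold change 2.06, edgeR adjusted p = 0.016). Egr4 was below 1 CPM in each unrestrained mouse, at 0.390, 0.831 and 0.526 CPM, and at 4.35, 6.79 and 2.80 CPM after restraint (log2 fold change 2.95, edgeR adjusted p = 0.0357). Egr1, the best known member of the family, showed no separation, with 37.9, 50.5 and 218 CPM against 116, 112 and 154 CPM. Its log2 fold change was 0.32 (SE 0.569, edgeR adjusted p = 0.896), it was 1.52 without PSD mouse 3, and it was -0.07 without PSD mouse 1 and -0.01 without PSD mouse 2.

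In the list of 21 IER, KLF and other early genes, Ier3, Ctgf and Npas4 were called. Npas4, an activity-dependent factor best known from neurons, had 11.3, 14.4 and 16.6 CPM in PSD mice and 28.2, 45.5 and 41.8 CPM in PSD + restraint mice (log2 fold change 1.44, edgeR adjusted p = 0.0316). Ctgf, a matricellular growth factor now named Ccn2, had 16.0, 13.1 and 15.5 CPM against 31.0, 32.8 and 22.1 CPM (log2 fold change 0.95, edgeR adjusted p = 0.0154). Arc, a synaptic immediate early gene, was not called although its groups stood apart (log2 fold change 1.08, edgeR adjusted p = 0.0989). Ier2 and Btg2 overlapped, with log2 fold changes of 0.04 and 0.15.

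Negative regulators of MAP kinase signalling gave 2 calls among 16 genes, Errfi1 and Dusp14. Dusp14, a dual-specificity phosphatase gene, had 45.6, 34.1 and 54.2 CPM in PSD mice and 109.7, 147 and 104 CPM after restraint (log2 fold change 1.43, edgeR adjusted p = 0.0154). Dusp1, Dusp5 and Dusp16 had log2 fold changes of 1.25, 1.04 and 0.40 and were not called. Among the 8 cAMP-induced genes 0 were called, beside 0.257% of all genes called higher. Gem, a small GTPase that limits calcium channels, had 20.2, 11.1 and 41.2 CPM against 78.6, 124 and 77.9 CPM (log2 fold change 1.96, edgeR adjusted p = 0.087). Crem, which also yields the cAMP repressor ICER, was at 78.4, 42.7 and 74.8 CPM against 127, 123 and 147 CPM (log2 fold change 1.01, edgeR adjusted p = 0.114).

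Genes of inflammation and of growth arrest were also among those called. In the list of cytokines and NF-kB feedback genes, 19 of 23 members were tested and 3 were called higher, against 0.257% of all genes tested. Il1b, the cytokine interleukin-1 beta, had 0.683, 0.632 and 1.24 CPM in PSD mice and 2.67, 4.03 and 2.86 CPM in PSD + restraint mice (log2 fold change 1.91, SE 0.273, edgeR adjusted p = 0.0153). Nfkbiz, a nuclear IkB protein that acts with NF-kB, had 11.3, 12.2 and 13.0 CPM in PSD mice against 19.4, 30.0 and 22.4 CPM (log2 fold change 0.97, edgeR adjusted p = 0.0141). Cebpd, an acute phase transcription factor, had 20.6, 21.9 and 31.0 CPM in PSD mice against 53.9, 47.8 and 42.6 CPM (log2 fold change 0.97, edgeR adjusted p = 0.0338). Nfkbia, the inhibitor of NF-kB, missed the threshold at 0.62 (edgeR adjusted p = 0.0586). The median of the list was 0.26. Tnfaip3, another NF-kB inhibitor, was high in PSD mouse 3 alone, with 5.04, 3.23 and 23.0 CPM against 6.10, 7.61 and 6.04 CPM.

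The 19 GADD45 and apoptosis genes held 2 calls, both higher, against 0.257% of all genes tested. Gadd45b, a stress sensor and demethylation cofactor, had 22.6, 23.95 and 29.4 CPM in PSD mice and 52.8, 74.8 and 59.7 CPM in PSD + restraint mice (log2 fold change 1.30, edgeR adjusted p = 0.0154). Trib1, a pseudokinase that directs proteins to degradation, had 13.1, 19.5 and 18.3 CPM against 32.8, 34.6 and 29.6 CPM (log2 fold change 0.93, edgeR adjusted p = 0.0154). Among the uncalled members, Bcl2l11, Gadd45a and Gadd45g had log2 fold changes of 0.42, 0.38 and 0.34, and the median of the list was 0.08. The macrophage list, given here because Il1b is a macrophage product, had 0 of 11 members called and none at 0. Its summed level was 154 to 159.7 CPM in PSD mice and 178 to 185 CPM in PSD + restraint mice, with Lyz2 at 24.4, 23.1 and 21.5 CPM against 48.9, 40.5 and 28.3 CPM and Cx3cr1 at a log2 fold change of -0.06. The part of macrophages in the Il1b difference was not tested.

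Cytosolic heat shock chaperones, which refold proteins under stress, had 0 of 14 members called, beside 0.257% of all genes called higher. In 9 of the 14 the restrained mice all lay above the unrestrained mice, against 7.53% of all genes tested, and all 14 log2 fold changes were above 0, as were 8995 of the 18271 over all genes. The median of the list was 0.32, beside -0.00243 for all genes. The summed level of the 14 genes was 2448, 2486 and 2404 CPM in PSD mice and 3099, 2828 and 3028 CPM in PSD + restraint mice. Bag3, a cochaperone of HSP70, had 27.9, 18.1 and 29.6 CPM against 49.0, 53.7 and 40.5 CPM (log2 fold change 0.93, edgeR adjusted p = 0.0646). Hspa1a and Hspa1b had log2 fold changes of 1.38 and 1.36 (edgeR adjusted p = 0.236 and 0.256). These 2 genes are nearly identical in sequence, and how reads were divided between them is uncertain.

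Among hormone genes and genes of the stress axis 0 were called in males, beside 0.257% of all genes called higher and 0.0274% lower. At such shares 0 calls says little about lists this short. Pomc had 67628, 82788 and 104260.0 CPM in PSD mice and 129773, 124679 and 67866 CPM in PSD + restraint mice, so that restrained mice 1 and 2 lay above all unrestrained mice and restrained mouse 3 near the lowest of them (log2 fold change 0.34, SE 0.461, edgeR adjusted p = 0.86). Pcsk2, whose protease cuts the Pomc product further in melanotropes, had 1079, 1336 and 1575 CPM against 2038, 1958 and 1134 CPM (log2 fold change 0.36, edgeR adjusted p = 0.829). The receptor genes Crhr1, Nr3c1 and Nr3c2 had log2 fold changes of -0.08, 0.21 and -0.14 (edgeR adjusted p = 0.864, 0.785 and 0.803). Avpr1b, the vasopressin receptor of corticotropes, had 4.36, 4.32 and 4.95 CPM against 2.51, 2.65 and 3.56 CPM (log2 fold change -0.67, edgeR adjusted p = 0.341). Crhbp, the binding protein of corticotropin-releasing factor, was low, with 0.325, 0.343 and 0.184 CPM against 0.413, 0.597 and 1.27 CPM, all 3 restrained mice above the others. Its log2 fold change was 1.30 (edgeR adjusted p = 0.587), and in PSD females Crhbp was called (log2 fold change 3.44, edgeR adjusted p = 0.0149). The lists of POMC machinery (10 genes), glucocorticoid receptors and targets (16) and core clock genes (18) had 0 calls, with medians of 0.21, 0.13 and -0.01. Nfil3, a clock output repressor, came nearest (log2 fold change 1.11, edgeR adjusted p = 0.0646), and Per1, which is both a clock and an early gene, overlapped at 129, 71.2 and 225 CPM against 256, 289 and 187 CPM.

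Pathways of basal metabolism had medians near 0 and 0 calls, beside 0.257% of all genes called higher and 0.0274% lower. At such shares 0 calls says little about lists of this size. The pathways were cytosolic ribosomal proteins (78 genes tested, median 0.04), oxidative phosphorylation (79, -0.02), endoplasmic reticulum folding (22, 0.09), ATF4 and serine synthesis (16, 0.06), cholesterol synthesis (18, 0.01), CLK and SR splicing genes (17, -0.01) and cell proliferation (10, 0.02). Log2 fold changes were above 0 in 62 of the 78 ribosomal genes, 34 of the 79 of oxidative phosphorylation and 20 of the 22 of folding. In the ATF4 list 10 of 16 were above 0, in cholesterol synthesis 9 of 18, in splicing 7 of 17 and in proliferation 5 of 10. Over all genes tested 8995 of 18271 were above 0. Interferon-stimulated genes (11) had a median of -0.20, granins and VGF (7) of 0.11 and neurotrophin signalling (8) of 0.17. Cirbp, the cold-inducible RNA-binding protein, had 125, 119.8 and 153 CPM against 89.2, 100.4 and 88.9 CPM, the lower values all in the restrained mice, without being called (log2 fold change -0.52, edgeR adjusted p = 0.0879).

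**Figure D4:**
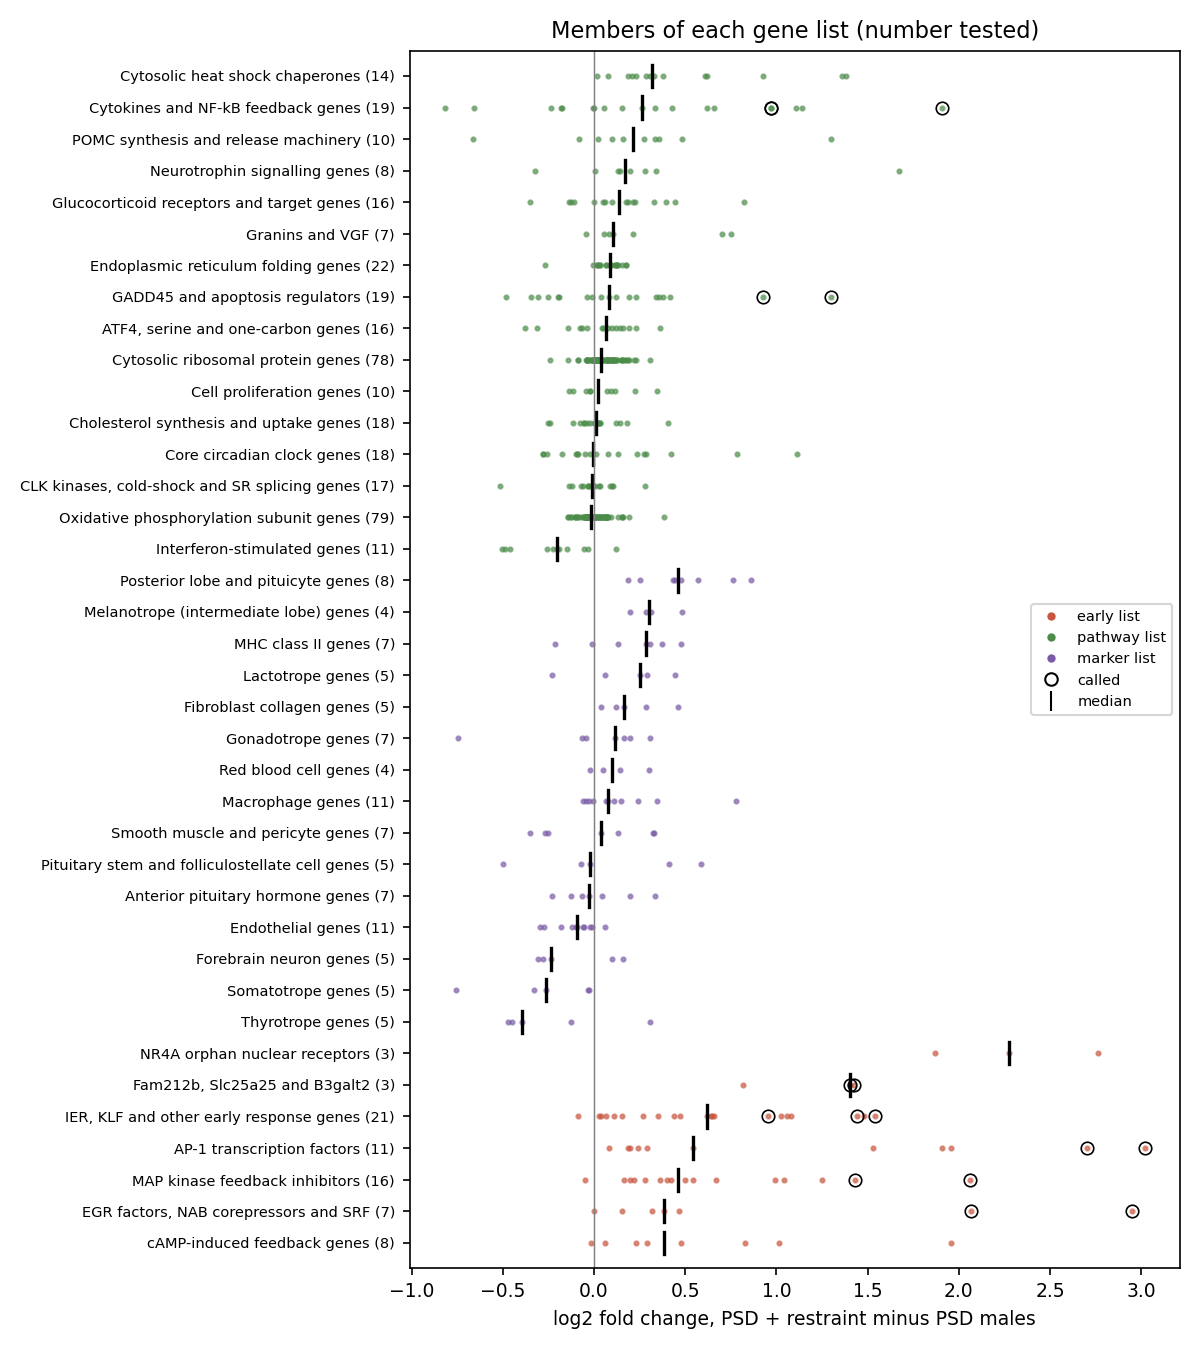
Log2 fold changes (PSD + restraint minus PSD males) of the tested members of each gene list on the horizontal axis, with 1 row per list and the number tested in brackets; colours mark early, pathway and marker lists, open black circles called genes and vertical bars medians. Early lists have medians from 0.38 to 2.28, and outside them calls are found in the cytokine list and the GADD45 list.

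The 5 lower genes were Exph5, Mettl17, Fbxo5, Jrk and Nrde2, none of which belongs to a list. Exph5, a Rab27 effector in vesicle transport, had 16.6, 19.7 and 15.2 CPM in PSD mice and 10.5, 11.8 and 10.7 CPM in PSD + restraint mice (log2 fold change -0.64, SE 0.101, edgeR adjusted p = 0.0203). Fbxo5, which holds back the anaphase-promoting complex, had 4.16, 4.03 and 4.08 CPM against 2.16, 2.54 and 2.61 CPM (log2 fold change -0.76, edgeR adjusted p = 0.0433). Mettl17, required for the mitochondrial ribosome, differed less, with 31.3 ± 1.17 against 24.3 ± 0.948 CPM (SD, n = 3 each, log2 fold change -0.37). Jrk, a DNA-binding protein gene, had 13.6, 13.0 and 12.6 CPM against 8.83, 8.51 and 10.2 CPM (log2 fold change -0.52, edgeR adjusted p = 0.0433). Nrde2, a nuclear partner of the RNA exosome helicase, had 18.9, 20.1 and 22.7 CPM against 13.7, 15.3 and 14.6 CPM (log2 fold change -0.51, edgeR adjusted p = 0.0444).

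Marker transcripts of the intermediate and posterior lobes varied between the glands. The 4 melanotrope markers summed to 829 to 1157 CPM in PSD mice, but to 1622, 1484 and 823 CPM in PSD + restraint mice 1, 2 and 3, and the 8 posterior lobe markers to 93.9 to 106 CPM against 140, 182 and 88.9 CPM. Each of the 12 markers had log2 fold changes above 0 and 0 were called, with list medians of 0.30 and 0.46. Within each group Pomc and Pcsk2 followed the order of mice of the melanotrope sum. The defining markers of the anterior lobe were present in all 6 mice, Gh at 112971 to 217810 CPM and Prl at 38899.9, 42436 and 41184 CPM in PSD mice and 36746, 31794 and 36194 CPM in PSD + restraint mice (edgeR adjusted p = 0.985 and 0.492). The other marker lists of cell types also held 0 calls, with medians from -0.39 in thyrotrope genes and -0.26 in somatotrope genes to 0.29 in MHC class II genes. With 0.257% of all genes called higher and 0.0274% lower, 0 calls says little about lists this short. With a lobe score as a covariate all 52 genes were still called and the total was 116. Without PSD + restraint mouse 3, whose lobe sums were slightly under those of every PSD mouse, 43 of the 52 were called.

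Restraint without PSD had been given to 2 other males, which were compared with 4 home cage controls, so that no mouse is shared with the contrast above. There 53 genes were called higher (0.29%) and 1 lower. All 47 genes called higher within PSD males also had a positive log2 fold change without PSD, and 21 of them were called there, whereas 58.6% of all genes tested had the same direction in both contrasts. The median log2 fold change of the 47, which were selected by the contrast after PSD, was 0.99 there and 0.91 without PSD. Over the 69 early response genes the order was the other way, with a median of 0.54 and 11 called after PSD against 0.73 and 20 called without it. This order depended on PSD mouse 3. When that mouse was left out the median after PSD was 0.79, and 0.45 to 0.65 when another mouse of the contrast was. The NR4A list had medians of 2.28 after PSD and 3.84 without it, and the AP-1 list of 0.54 and 1.34. The EGR list had 0.38 and 0.94, and the cAMP-induced list 0.38 and 0.63. In the other early lists the median was higher after PSD. It was 0.62 and 0.52 for IER and KLF genes and 0.46 and 0.29 for MAP kinase inhibitors. For Fam212b, Slc25a25 and B3galt2 it was 1.41 and 1.14. These differences between list medians were not tested. Of the 5 lower genes 4 had the same direction, and 0 were called. The shared calls amount to 40.4% of the 52 genes called here and 38.9% of the 54 called without PSD. All 47 stayed positive without PSD when home cage control male 1 was left out, and 20 were then called.

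**Figure D5:**
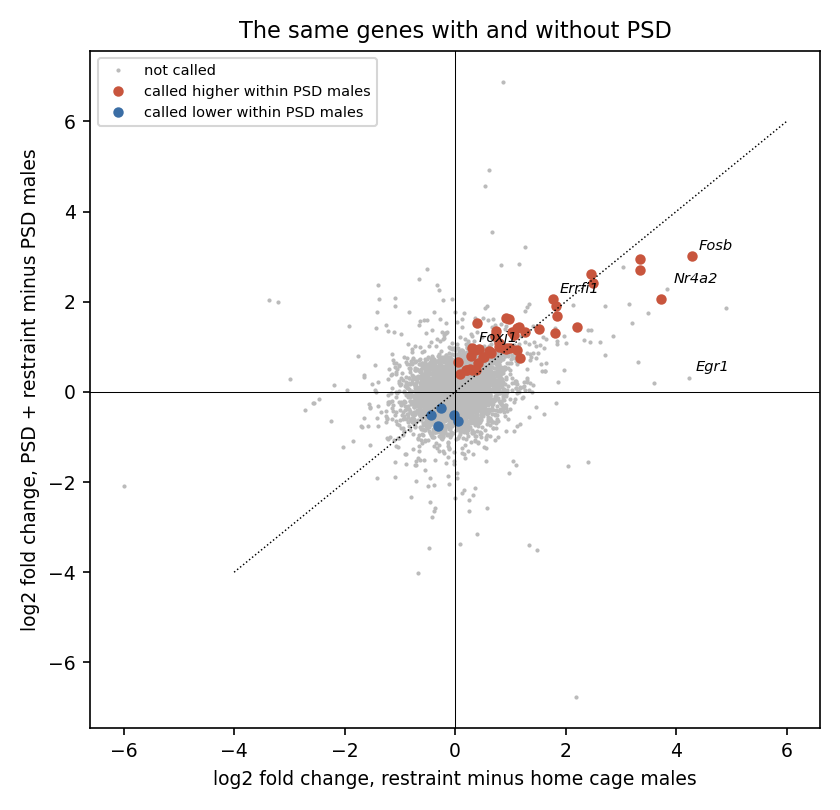
Log2 fold change of each gene for restraint without PSD (restraint minus home cage males, horizontal axis) against restraint within PSD males (vertical axis), with the dotted line at equal values. The called genes fall in the upper right for the 47 higher ones, while Egr1 lies far to the right at a vertical value of 0.32.

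Whether the response to restraint differed with PSD was tested directly as the interaction of PSD and restraint in the 12 males. Of 18271 genes, 0 (0%) were called by edgeR and 0 by DESeq2, while 702 had an unadjusted p under 0.05. The smallest adjusted p was 0.999971. Exph5, Egr1 and Rab6b, a Golgi transport GTPase gene, had the smallest unadjusted p. For Exph5 the difference of log2 fold changes was -0.69 (SE 0.144, edgeR unadjusted p = 0.00035). Egr1 had a log2 fold change of 4.23 with restraint alone (edgeR adjusted p = 0.00899), with 25.5, 18.4, 7.14 and 7.47 CPM in home cage controls and 329 and 229 CPM in restrained males, and the interaction was -3.91 (SE 0.835, edgeR unadjusted p = 0.000437, adjusted p = 0.999971). The PSD males had 37.9, 50.5 and 218 CPM of Egr1 without any restraint, above all 4 home cage controls. Nr4a1 likewise was at 13.8 to 49.96 CPM in the home cage controls and at 86.6 to 483 CPM in the PSD males, and at 760.4 and 867 CPM after restraint alone (interaction -3.04, SE 0.736, edgeR unadjusted p = 0.00122). Fam212b had 19.6, 21.5, 20.7 and 20.4 CPM in controls and was also above them in the PSD males, at 27.0, 26.1 and 28.9 CPM. It had 40.8 and 49.3 CPM after restraint alone, and its interaction was positive, at 0.30 (SE 0.136, edgeR unadjusted p = 0.0469). None of these differences passed the correction over all genes.

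The same contrast in PSD females, 4 against 4, called 147 genes higher (0.814% of 18059 tested) and 23 lower. Of the 47 genes higher in males, 46 had the same direction in females and 27 were called, among them B3galt2, Ptp4a1, Il1b, Dusp14, Fosb and Mest, against 58.7% with the same direction over all genes. The exception was Foxj1, at -0.46 in females (edgeR adjusted p = 0.652). All 5 lower genes had the same direction in females, and Jrk was called (log2 fold change -0.44, edgeR adjusted p = 0.0229). The NR4A genes were called in females, with log2 fold changes of 3.92 for Nr4a1, 3.79 for Nr4a2 and 5.02 for Nr4a3. The shared calls are 53.8% of the 52 in males and 16.5% of the 170 in females.

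A test of the difference between the sexes over all 28 mice called 0 of 18936 genes (0%) by edgeR and 0 by DESeq2, with 872 at an unadjusted p under 0.05 and a smallest adjusted p of 0.961. Ier3 and Gpr84 had the smallest unadjusted p. Ier3 had a log2 fold change of 1.54 in males and 0.29 in females, and the difference, female minus male, was -1.26 (SE 0.281, edgeR unadjusted p = 0.000144). Gpr84, a fatty acid receptor gene of myeloid cells, was under 1.5 CPM in all 6 males, and its difference was -2.84 (SE 0.659, edgeR unadjusted p = 0.00023). Foxj1 differed by -1.44 (SE 0.366, edgeR unadjusted p = 0.000614) and Nr4a1 by 2.04 (SE 0.666, edgeR unadjusted p = 0.0052), neither past the correction.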

How the data were processed

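RNA of 28 pituitaries, 1 mouse each, was sequenced by the study on poly(A) libraries with paired ends. MapSplice served the authors for alignment to mm10, and HTSeq 0.9.1 (mode intersection-nonempty) for counting over the gene models of UCSC. The deposited values are these raw counts. The strand setting is not given in the sources used here. A second deposited table of normalized counts was not used. All 28 columns of the count table were mapped from the labels. The deposited table lists 32594 genes, and totals were 14024465 to 52948531 counts per mouse.

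Genes kept by filterByExpr were tested with edgeR 4.0.16 in R 4.3.3, in a model of 12 males with PSD, restraint and their interaction. PSD females were fitted in the same model of the 16 females. The difference between the sexes was tested in a model of 28 mice with 1 mean per group. The TPM filter of the study's methods was not applied. CPM use TMM factors, with a prior count of 2 on the log scale. The interaction of PSD and restraint tests whether the responses differ. The labels do not say whether mice of 1 group were housed or processed apart. The p-values measure the spread between these mice, which may be partly technical. If the mice of a group shared a cage or a tank, that spread leaves out differences between cages or tanks. Pairs within the 2 groups differed by more than counting noise (chi-square per degree of freedom 7.48 to 68.5). Correlations of deviations between mice with the same number were -0.122, 0.112 and -0.109, and between mice with different numbers -0.183 to 0.243. They show no pairing by number, but with 3 mice per group they cannot exclude a pairing or a shared batch.

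Genes are named by rule: the 12 higher and 12 lower called genes with the smallest p whose groups do not overlap (5 were lower), up to 6 called members of each list or else its member with the smallest p, the genes measured by qRT-PCR, the 3 genes with the smallest p in each difference test and 7 hormone genes. One gene named by this rule is not reported here. Others were named after their values were seen. The members, lists and rules were chosen with earlier results of these data known. Positions come from GENCODE M21 (46 of 52 called genes matched) and promoters from RefSeq. In simulated data for the PSD contrast, in which 200 of 18452 genes changed by 1 log2 unit, edgeR recovered 158 and called 9 unchanged genes, and DESeq2 1.42.0 recovered 169 and called 7. For the interaction edgeR recovered 116 and called 3, and for the sex difference, over 18730 genes, 142 and 9. The changed genes were drawn from those with a mean above 1 CPM. Counts were simulated gene by gene, without deviations that many genes of a mouse share, so the setting was simpler than the real data. Alternatives were DESeq2, its size factors, other filters, a replicate block, the lobe score, edgeR's robust option, only the 6 PSD males, no fold threshold and leaving out mice.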

Additional observations from a re-analysis of the deposited data

How the results depend on the processing

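The 52 genes called kept their direction in every alternative that tested them. For the fits that left out a mouse this was close to fixed in advance, because the groups do not overlap in these genes. The count stayed within 1.5 times with size factors (57), no filter (72), at least 10 counts in every mouse (51), edgeR's robust option (53) and no fold threshold (52). It was 27 with only the 6 PSD males, 116 with the lobe score as a covariate, 127 with DESeq2 and 92 without home cage control male 1, a choice made after seeing the data, as were the leave-out counts of the early genes. Leaving out 1 of the 6 mice gave 3 to 79. The replicate block gave 6 (Arc, Errfi1, Fam212b, Gadd45b, Ier3 and Odc1). The correlations by number showed no pairing of the mice but cannot exclude one. The cause of these differences was not tested.

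The count of genes that differed with PSD was 0 in every alternative run, and that between the sexes 0 to 1 (Xist, without PSD mouse 1) when a mouse was left out and otherwise 0. Of 415 recomputed values of the 26 named and called genes, 281 kept the call, 134 lost it and 0 reversed. Of 717 values of 45 named genes not called, 20 passed the threshold and 16 reversed. With the lobe score the log2 fold change of Pomc was -0.032 and of Gh 0.026, and with DESeq2 that of Alas2 was -0.0218. Without 1 mouse, values that reversed ranged from -0.0711 to 1.52 for Egr1, -0.49 to 0.69 for Alas2, -0.38 to 0.15 for Gh, -0.12 to 0.15 for Cga, -0.36 to 0.071 for Tshb, -0.47 to 0.096 for Camk2a and -0.16 to 0.017 for Fshb. Of 570 list medians 23 moved by more than the spread between mice. PSD + restraint mouse 3 had the lowest depth, which limits genes near 1 CPM.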
